A study of Homo sapiens with 18 samples.

Results

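The tropomyosin and tropomodulin genes were followed across 18 libraries of MSC-hTERT, a human mesenchymal stem cell line immortalized with telomerase. The members were chosen by gene symbol and matched to Ensembl identifiers: the 4 tropomyosin genes TPM1, TPM2, TPM3 and TPM4, and the tropomodulin genes TMOD1, TMOD2 and TMOD3. They are 7 of the 61487 identifiers in the deposited count table. All 7 passed the filter on low counts, which left 18544 genes for testing.

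Tropomyosins are coiled-coil proteins that polymerize head to tail along both grooves of the actin filament and control which other proteins, myosin among them, can reach it. Each tropomyosin gene gives rise to several isoforms through alternative promoters and splicing, and non-muscle isoforms decorate the stress fibres of fibroblast-like cells. Tropomodulins cap the pointed, slow-growing end of the filament and bind tropomyosin there. Many genes of the actin cytoskeleton carry a CArG box, the DNA element bound by serum response factor (SRF), a transcription factor whose activity follows the actin monomer pool through its myocardin-related cofactors.

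The libraries form 6 groups of 3, all in the same line. The label pMSCV names a retroviral vector, and these cells were taken as the control. They were compared with cells expressing SRF and with cells expressing SRF fused to FOXO1 (SRF-FOXO1), to ICA1L (SRF-ICA1L), to PDGFRB (SRF-PDGFRB) or to RELA (SRF-RELA). The fusions come from myoid soft tissue tumours, per the series title, so a single immortalized stem cell line stands in for the tumour cell, and the labels give no time after transduction and no clone. The comparisons ask what each construct changes against the vector and against SRF, and the series compares the 6 conditions with each other. The labels do not say that replicates came from separate cultures, so p-values measure only the spread between these libraries, which may be technical.

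Library totals ranged from 19362319 to 29806771 counts. SRF counts, which hold native and construct reads together, were 60.96 ± 3.56 CPM in pMSCV (counts per library total, scaled as CPM; SD, n = 3), 945 ± 236 in SRF and between 182 and 326 CPM on average in the fusion groups. ICA1L stood at 136 ± 16.7 CPM in SRF-ICA1L against 13.5 ± 1.06 CPM in pMSCV, RELA at 256 ± 19.2 against 93.3 ± 3.76 CPM in SRF-RELA, and PDGFRB at 709 ± 205 against 425 ± 67.0 CPM in SRF-PDGFRB, where it was not called (edgeR adjusted p = 1). FOXO1 was not raised in the libraries labelled SRF-FOXO1, at 9.79 ± 3.99 CPM against 12.6 ± 4.27 CPM in pMSCV (edgeR adjusted p = 0.727), so that group is named by its label throughout. The mesenchymal markers NT5E, THY1 and ENG were present in every library, from 36.8 CPM upward, whereas of the 8 markers of other cell types MYOG was at 0, MYOD1 held at most 1 count, and the highest was PECAM1 at 4.31 to 27.96 CPM.

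In the GRCh38 build with GENCODE release 29, the members lie on 4 chromosomes. TPM1 (ENSG00000140416) spans chr15:63042632-63071915 on the plus strand, TPM2 (ENSG00000198467) chr9:35681992-35690121 on the minus strand, TPM3 (ENSG00000143549) chr1:154155304-154194648 on the minus strand and TPM4 (ENSG00000167460) chr19:16067021-16103005 on the plus strand. TMOD1 (ENSG00000136842) lies at chr9:97501180-97601748, and TMOD2 (ENSG00000128872) at chr15:51751561-51816368 next to TMOD3 (ENSG00000138594) at chr15:51829628-51947295, all 3 on the plus strand. TPM1 carries 34 annotated transcripts with 31 different start positions, against 3 transcripts for TMOD1. The deposited counts are per gene, so a change of isoform within a gene does not show.

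Promoter windows from RefSeq (GRCh38.p14), each from 250 bases before to 50 bases after an annotated start, were searched for the CArG box by its consensus. The consensus is its own reverse complement, so both strands were covered. All 7 genes matched with 12 windows, of which 1 held a CArG box, a TPM4 window with the box 173 bases before the start. Of all 35116 windows of the same length, 454 (1.29%) held a box. The 2 stretches shown lie upstream of the TPM4 start with the box and of the TPM1 start that was searched. The box is in capitals at chr19:16067365-16067374. Each stretch lies inside its annotated gene, after the first annotated base (chr19:16067021 for TPM4 and chr15:63042632 for TPM1). Both are on the plus strand, 5′ to 3′, and leave out the annotated exon. A match is a description of these letters and no match says only that they are not in this window.
TPM4, chr19:16067307-16067506: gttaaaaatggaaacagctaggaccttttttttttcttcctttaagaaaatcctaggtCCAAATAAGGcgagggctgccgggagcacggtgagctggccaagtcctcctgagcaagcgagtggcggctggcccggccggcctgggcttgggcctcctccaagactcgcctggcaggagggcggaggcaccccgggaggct
TPM1, chr15:63048239-63048438: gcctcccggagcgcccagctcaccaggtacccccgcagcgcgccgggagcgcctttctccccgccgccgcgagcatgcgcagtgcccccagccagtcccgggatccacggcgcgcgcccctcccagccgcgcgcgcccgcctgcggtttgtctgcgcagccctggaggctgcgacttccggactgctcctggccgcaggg

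The tropomyosins were abundant in these cells and the tropomodulins were not. Per kilobase of the gene's principal transcript, the pMSCV libraries averaged 773 CPM for TPM4, 709 CPM for TPM1, 401 CPM for TPM2 and 225 CPM for TPM3. On the same scale TMOD3, the broadly expressed tropomodulin, was at 15.03 CPM, TMOD2, known from neurons, at 2.19 CPM and TMOD1, the form of striated muscle and red cells, at 0.171 CPM. Which isoforms were in use is not known, so the order of 2 genes as near as TPM4 and TPM1 depends on the transcript chosen. The members also differed in how far the groups stood apart. The highest group mean was 2.83 times the lowest for TPM1, 2.77 times for the sparsely counted TMOD1, 1.33 times for TPM2 and for TPM4, 1.41 times for TPM3, 1.63 times for TMOD2 and 1.14 times for TMOD3.

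**Figure D1:**
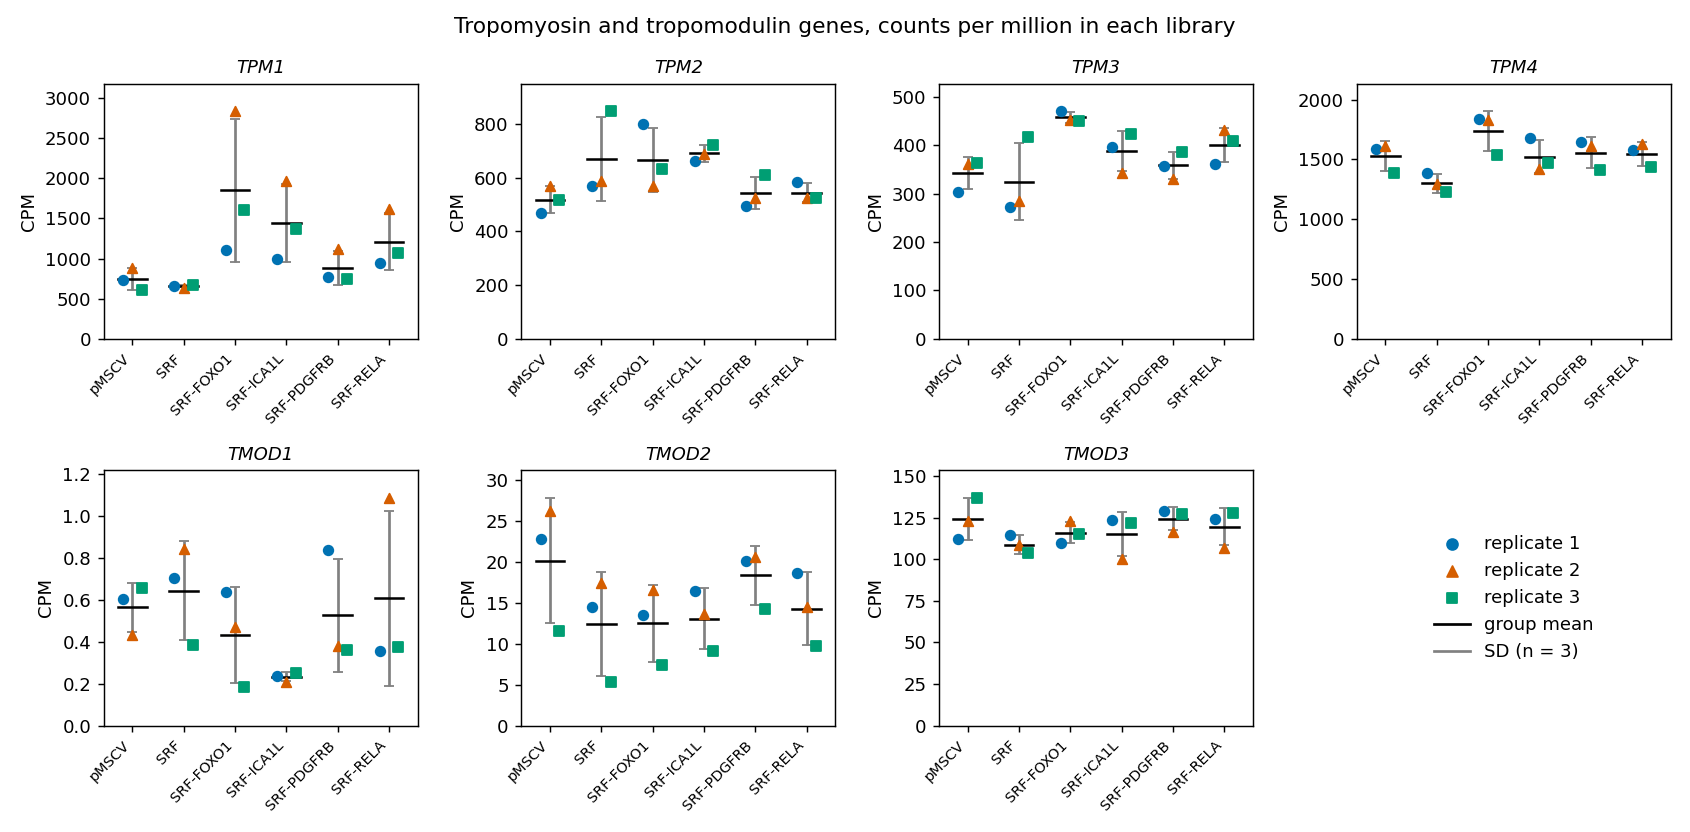
CPM (y axis, linear from 0) of the 7 genes in the 6 groups (x axis), with each library as a symbol by its replicate number, the group mean as a black line and the SD (n = 3) as a grey bar. TPM1 runs from 614 CPM in a pMSCV library to 2839 CPM in a library labelled SRF-FOXO1, and TMOD3 stays between 100.1 and 137 CPM.

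TPM1, a tropomyosin gene with muscle and non-muscle isoforms, gave the only change that edgeR called without the replicate number in the model. In CPM, the libraries of replicate 1, 2 and 3 stood at 732, 885 and 614 in pMSCV and at 661, 638 and 665 in SRF. The values were 1102, 2839 and 1608 for SRF-FOXO1 and 997, 1961 and 1368 for SRF-ICA1L. For SRF-RELA they were 941, 1620 and 1074, and for SRF-PDGFRB 769.6, 1123 and 744. The groups SRF-RELA, SRF-ICA1L and SRF-FOXO1 lay above every pMSCV and SRF library, while SRF-PDGFRB overlapped pMSCV and lay above SRF. How many of all genes part the groups in this way was not counted, here or for the genes below. Such statements are descriptions. Replicate 2 was the highest library in 5 of 6 groups, the exception being SRF.

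Against SRF, TPM1 rose in the libraries labelled SRF-FOXO1 by 1.57 on the log2 scale (SE 0.35, edgeR adjusted p = 0.0392), and was higher at 3 of 3 replicate numbers. It was the 1 of 7 members that edgeR called in that comparison, where 1.36% of the 18544 tested genes were called. DESeq2 called 3 of 7, TPM1, TPM3 and TPM4, beside 3.45% of its genes. In edgeR 253 genes were called with all libraries, 20 when SRF replicate 2 was left out and 859 when SRF replicate 3 was. The call held without SRF-FOXO1 replicate 1 (edgeR adjusted p = 0.00801) and was lost without any other of the 6 libraries. Its edgeR adjusted p was 0.156 without SRF replicate 1, 0.152 without SRF replicate 2, 0.052 without SRF replicate 3, 0.174 without SRF-FOXO1 replicate 2 and 0.0554 without SRF-FOXO1 replicate 3. In bulk RNA, fewer cells with a transcript and less of it per cell cannot be told apart. Summed over the 8 markers of other cell types, the level was 8.38 to 15.1 CPM in the libraries labelled SRF-FOXO1 and 17.2 to 30.2 CPM in SRF. PECAM1 alone reached 27.96 CPM in SRF replicate 2, while CD34 reached at most 3.47 CPM and CD14 0.736 CPM in any library. The sum is therefore no measure of other cell types in general. The part of these markers in the TPM1 difference was not tested.

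Against pMSCV, edgeR called no member in the model without the replicate number, and TPM1 in 2 of 5 comparisons with it. Libraries with the same number deviated together from their group means, so the number was added as a block. In the libraries labelled SRF-FOXO1, TPM1 was higher on the log2 scale by 1.42 (SE 0.35, edgeR adjusted p = 0.0737) without the block and 1.32 (SE 0.22, edgeR adjusted p = 0.00261) with it. The call with the block was kept in each of the 6 fits that left out 1 library. In SRF-ICA1L the values were 1.08 (SE 0.35, edgeR adjusted p = 0.237) without the block and 1.02 (SE 0.22, edgeR adjusted p = 0.0146) with it. That call was kept without pMSCV replicate 1 or SRF-ICA1L replicate 1 and lost without each of the other 4 libraries, where the edgeR adjusted p ran from 0.0661 to 0.0863.

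The share of tested genes called against pMSCV was 0.928% for SRF-FOXO1 and 0.469% for SRF-ICA1L without the block, and 7.03% and 4.66% with it. Without the block edgeR gave 0 called members in both, with 3 and 2 at an unadjusted p under 0.05. The last of these ranked 946 and 560 of the 18544 tested genes by that p, so at least that many genes passed. DESeq2 called TPM1 and TPM3 in SRF-FOXO1, beside 2.33% of its genes, and in SRF-ICA1L TPM2 but not TPM1 (DESeq2 adjusted p = 0.0857), beside 1.55%. These shares rest on single libraries: without the block, 172 genes were called in SRF-FOXO1, but 3 without pMSCV replicate 1, 12 without pMSCV replicate 3 and 435 without SRF-FOXO1 replicate 1. With the block the 1304 became 428 without SRF-FOXO1 replicate 2. For SRF-ICA1L the counts without 1 library ran from 29 to 148 without the block (87 with all libraries) and from 281 to 685 with it (864). TPM1 did not pass in SRF-RELA, at 0.77 (SE 0.35, edgeR adjusted p = 1) without the block and 0.72 (SE 0.22, edgeR adjusted p = 0.215) with it. It did not pass in SRF-PDGFRB, at 0.24 (SE 0.34), or in SRF, at -0.15 (SE 0.34). In those 3 comparisons 0.183%, 0.0324% and 0.027% of genes were called without the block and 0.971%, 0.178% and 0.243% with it, and 0 members in either model. At an unadjusted p under 0.05 in edgeR, TPM1 and no other member passed in SRF-RELA, TPM2 alone in SRF, and 0 members in SRF-PDGFRB. Ranked by that p among the 18544 tested genes, TPM1 was at 627 in SRF-RELA and TPM2 at 318 in SRF. DESeq2 called 0 members in each of the 3, beside 0.504% (SRF-RELA), 0.0766% (SRF-PDGFRB) and 0.133% (SRF) of its genes.

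Within a replicate number the TPM1 level moved in the same direction in each fusion. As ratios of CPM to the pMSCV library with the same number, the libraries labelled SRF-FOXO1 were at 1.51, 3.21 and 2.62 for numbers 1, 2 and 3. The ratios were 1.36, 2.22 and 2.23 in SRF-ICA1L, 1.29, 1.83 and 1.75 in SRF-RELA, and 1.05, 1.27 and 1.21 in SRF-PDGFRB. In SRF they were 0.904, 0.720 and 1.08, on both sides of equality. The ratio was smallest for number 1 in each of the 4 fusions.

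**Figure D2:**
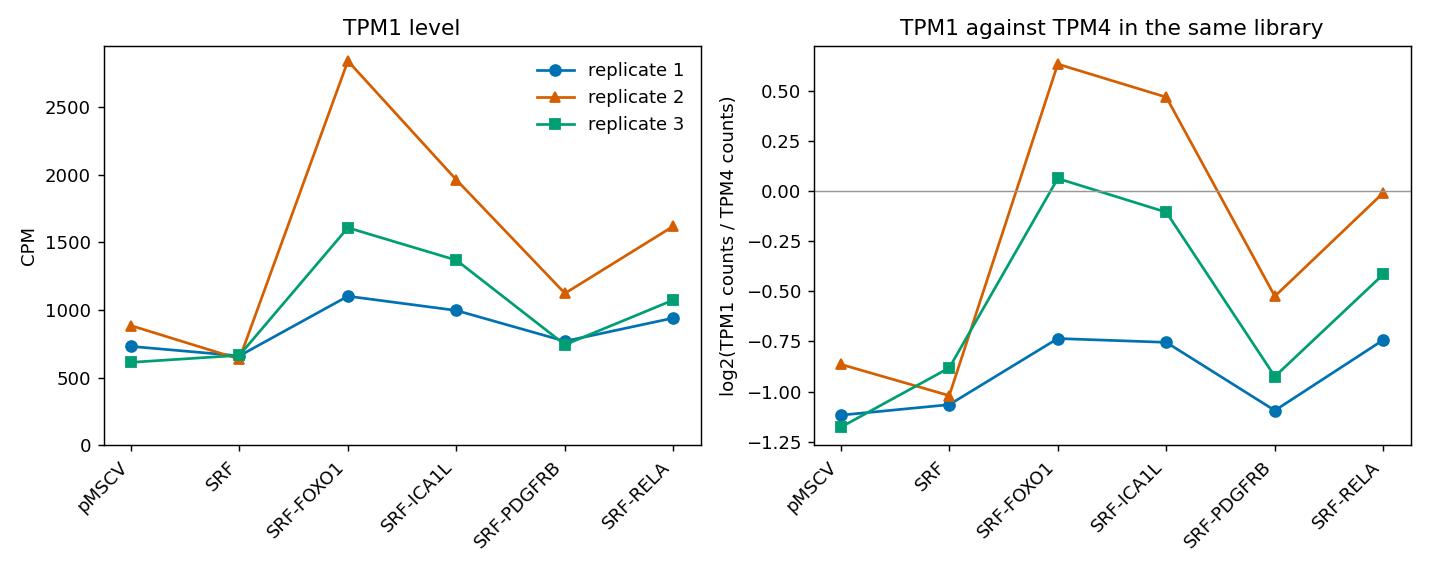
Left, TPM1 level in CPM (y axis, linear from 0) in the 6 groups, with lines that join libraries of the same replicate number. Right, the log2 ratio of TPM1 to TPM4 counts in the same library, which is below -0.86 in every pMSCV and SRF library and above 0 in 3 of the fusion libraries.

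In the other comparisons with SRF, edgeR gave no TPM1 call without the block. In SRF-ICA1L the TPM1 difference was 1.23 (SE 0.35, edgeR adjusted p = 0.136), where 0 members and 0.782% of genes were called. With the block it was 1.13 (SE 0.22, edgeR adjusted p = 0.00798), 1 of 7 members called against 4.73% of genes. Without SRF replicate 2 that edgeR adjusted p was 0.051, and the call was kept without each of the other 5 libraries. In SRF-RELA it was 0.92 (SE 0.35, edgeR adjusted p = 0.44), with 0 members and 0.388% of genes called (1.73% with the block), and in SRF-PDGFRB 0.39 (SE 0.34, edgeR adjusted p = 0.677), with 0 members and 0.146% of genes called (2.34% with the block). DESeq2 called TPM1 alone of the members in SRF-ICA1L (adjusted p = 0.0235, beside 1.99% of its genes) and 0 members in SRF-RELA (0.79%) and SRF-PDGFRB (1.23%). At an unadjusted p under 0.05 in edgeR, 4 members passed in SRF-ICA1L, 2 in SRF-RELA and 1 in SRF-PDGFRB. By that p, the last of them ranked 1683, 1359 and 1754 of the 18544 tested genes. At least that many genes passed with them. The comparisons with pMSCV share the same 3 pMSCV libraries, and those with SRF share the same 3 SRF libraries, so their values are not independent of each other.

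In the order of group means, TPM1 ran from SRF (655 ± 14.98 CPM) over pMSCV (743 ± 136), SRF-PDGFRB (879 ± 212), SRF-RELA (1212 ± 359.6) and SRF-ICA1L (1442 ± 486) to SRF-FOXO1 (1849.8 ± 893). Each pair of neighbours in that order had overlapping libraries, and edgeR called none in either model. Between fusions further apart, TPM1 was higher in the libraries labelled SRF-FOXO1 than in SRF-PDGFRB by 1.18 (SE 0.35, edgeR adjusted p = 0.142) without the block and 1.11 (SE 0.22, edgeR adjusted p = 0.0107) with it. SRF-ICA1L against SRF-PDGFRB gave 0.84 (SE 0.35, edgeR adjusted p = 0.353) without the block and 0.81 (SE 0.22, edgeR adjusted p = 0.0459) with it. TPM1 was the 1 of 7 members called with the block in each of these 2 comparisons, where 4.35% and 4.76% of genes were called, and 0.717% and 0.82% without the block. DESeq2 called TPM1 in the first (2.02% of its genes) and 0 members in the second (2.24%).

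Both calls against SRF-PDGFRB depended on single libraries. For SRF-FOXO1 the edgeR adjusted p with the block was 0.0718 without SRF-FOXO1 replicate 2, 0.0687 without SRF-PDGFRB replicate 2 and 0.0719 without SRF-PDGFRB replicate 3. For SRF-ICA1L the call was kept without SRF-ICA1L replicate 1 alone (edgeR adjusted p = 0.0479) and lost without each of the other 5 libraries, from 0.101 to 0.199. In the remaining 4 comparisons between fusions no member was called by edgeR with or without the block, or by DESeq2. At an unadjusted p under 0.05 without the block, TPM2 and TMOD1 passed in SRF-ICA1L against SRF-RELA and 0 members in the other 3. Their ranks by that p were 137 and 269 of the 18544 tested genes. Genes called without the block made up 0.027% for SRF-FOXO1 against SRF-ICA1L, 0.00539% for SRF-FOXO1 against SRF-RELA, 0.0108% for SRF-ICA1L against SRF-RELA and 0.162% for SRF-PDGFRB against SRF-RELA. With the block the 4 shares were 0.911%, 0.167%, 0.0162% and 0.847%, and in DESeq2 0.37%, 0.0757%, 0.00987% and 0.526%.

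TPM4 is the tropomyosin gene of non-muscle cells that was the highest per kilobase in the vector libraries. Its 3 libraries stood at 1588, 1612 and 1388 CPM for pMSCV, 1384, 1293 and 1226 for SRF, and 1835, 1831 and 1539.7 for SRF-FOXO1. The other groups ran from 1412 CPM (SRF-PDGFRB replicate 3) to 1681 CPM (SRF-ICA1L replicate 1). On this unscaled CPM each SRF library was below each library of the other 5 groups, but narrowly (1384 CPM in SRF replicate 1 against 1388 in pMSCV replicate 3). The tests used TMM scaling, with factors of 0.9955 for SRF replicate 1, 1.048 for pMSCV replicate 3 and 1.06 for SRF-PDGFRB replicate 3. On that scale SRF replicate 1 lies above the other libraries named, so the separation depends on the scaling. Replicate 3 was the lowest library by CPM in 5 of 6 groups. The TPM4 difference from SRF, on the log2 scale, was 0.46 (SE 0.13, edgeR adjusted p = 0.0961) in the libraries labelled SRF-FOXO1, 0.31 (SE 0.13) in SRF-ICA1L, 0.27 (SE 0.13) in SRF-RELA and 0.22 (SE 0.13) in SRF-PDGFRB. None of these passed in edgeR without the block, while DESeq2 called TPM4 in SRF-FOXO1 (adjusted p = 0.0128). SRF against pMSCV was at -0.20 (SE 0.13, edgeR adjusted p = 0.929).

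TPM3 encodes tropomyosins of slow muscle fibres and of non-muscle cells. In CPM its libraries stood at 304, 361 and 363 in pMSCV, 272, 285 and 416 in SRF, and 471, 453 and 449.9 in SRF-FOXO1. SRF-ICA1L was at 396, 343 and 424, SRF-PDGFRB at 358, 329 and 387, and SRF-RELA at 361, 430.3 and 408. Each library labelled SRF-FOXO1 was above each library of the other 5 groups, a description without the share of all genes that do the same.

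The TPM3 difference between the libraries labelled SRF-FOXO1 and pMSCV was 0.50 (SE 0.14, edgeR adjusted p = 0.122) without the block and 0.50 (SE 0.13, edgeR adjusted p = 0.0300) with it. That makes TPM1 and TPM3 the 2 of 7 members called with the block in this comparison. The TPM3 call was kept without SRF-FOXO1 replicate 3 (edgeR adjusted p = 0.0269) and lost without each of the other 5 libraries, from 0.0536 to 0.129. Against SRF the value was 0.54 (SE 0.14, edgeR adjusted p = 0.0731), which DESeq2 called (adjusted p = 0.0111), as did edgeR after a correction for transcript length (adjusted p = 0.0235). TPM3 was also higher than in SRF-ICA1L, SRF-PDGFRB and SRF-RELA, by 0.21 (SE 0.14), 0.44 (SE 0.14) and 0.22 (SE 0.14), none of which was called with or without the block.

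TPM2, which encodes the beta tropomyosin of muscle and non-muscle isoforms, was not called in any comparison by edgeR with or without the block. Its libraries stood at 467, 568 and 518 CPM for pMSCV, 569, 588 and 848 for SRF, and 798, 569 and 633 for SRF-FOXO1. SRF-ICA1L was at 660.1, 688 and 722 CPM, SRF-PDGFRB at 492, 525 and 608 CPM, and SRF-RELA at 583, 526 and 523 CPM. All 3 libraries of SRF, of SRF-FOXO1 and of SRF-ICA1L were above the highest pMSCV library, which the lowest SRF and SRF-FOXO1 libraries passed only narrowly (both 569 against 568 CPM).

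Against pMSCV, TPM2 was at 0.53 in SRF-ICA1L (SE 0.15, edgeR adjusted p = 0.161), at 0.44 in SRF-FOXO1 (SE 0.15; edgeR gave an adjusted p of 0.184) and at 0.40 in SRF (SE 0.15, edgeR adjusted p = 0.900). For SRF-ICA1L, DESeq2 called it (adjusted p = 0.0409) and the block gave an edgeR adjusted p of 0.0523. The 2 libraries where TPM2 was highest, SRF replicate 3 and SRF-FOXO1 replicate 1, were also those with the steepest loss of level with transcript length. The slope of the log2 level per doubling of length was -0.128 and -0.0726 there and between -0.0175 and 0.0451 in the other 16. After a correction for length the TPM2 difference from pMSCV was 0.29 in SRF (edgeR adjusted p = 0.939) and 0.35 in SRF-FOXO1 (edgeR adjusted p = 0.143), the groups with these libraries. In SRF-ICA1L it was 0.49 (edgeR adjusted p = 0.0595), and 0.49 with the block (edgeR adjusted p = 0.0138).

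**Figure D3:**
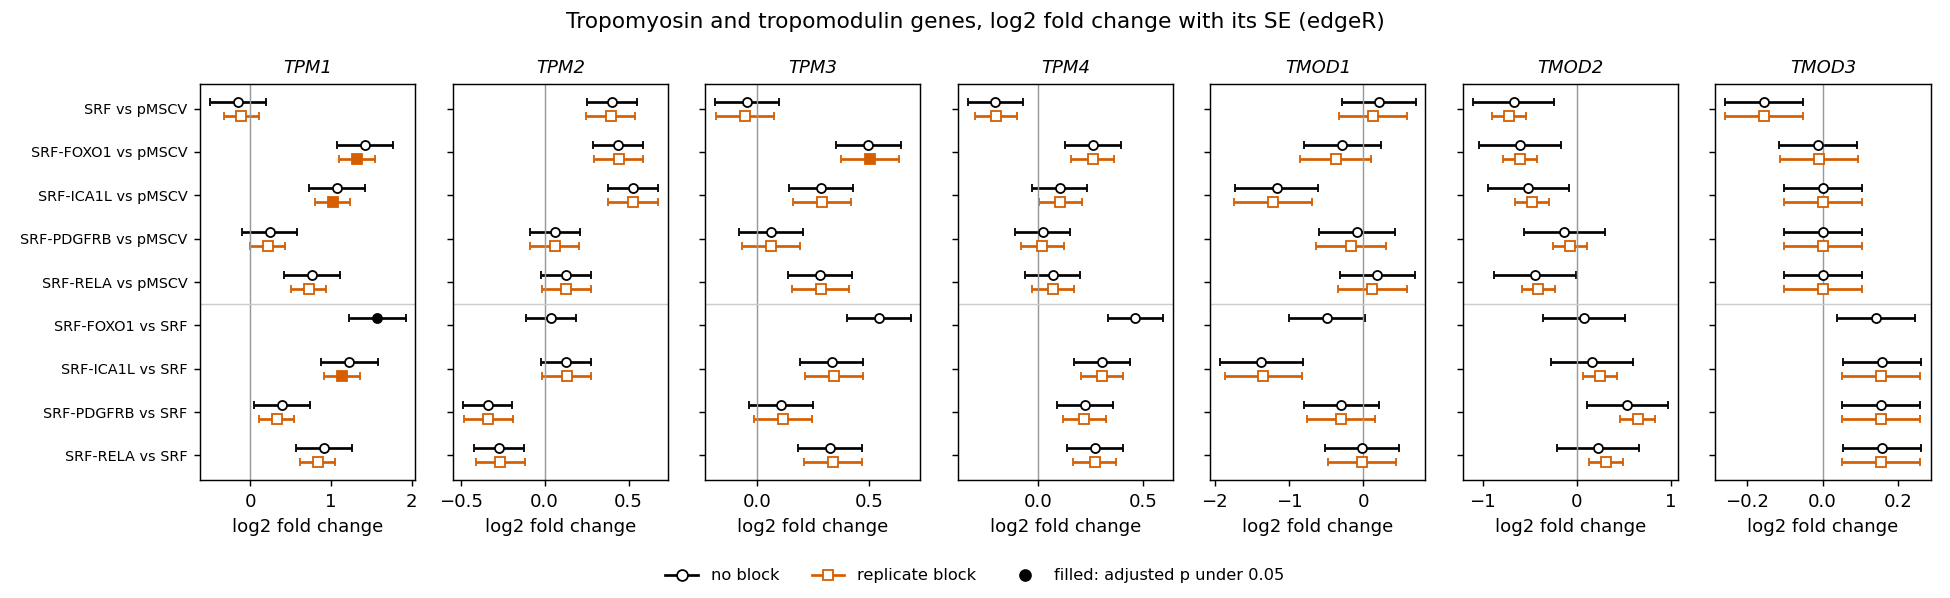
The log2 fold change (x axis, its own range in each panel) of the 7 genes in the comparisons with pMSCV (upper 5 lines) and SRF (lower 4 lines), with bars of 1 SE. Circles are the edgeR model without the replicate number and squares the model with it as a block, not drawn for SRF-FOXO1 against SRF, and filled symbols have an adjusted p under 0.05. TPM1 has 4 filled symbols and TPM3 has 1.

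No tropomodulin was called in any of the 15 comparisons, by edgeR with or without the block or by DESeq2. TMOD3, the tropomodulin of most cell types, was between 100.1 and 137 CPM in each library, and its log2 fold changes against pMSCV and SRF lay between -0.15 and 0.16 with an SE of 0.10. TMOD2 was lowest in replicate 3 in 6 of 6 groups. It stood at 22.8, 26.2 and 11.5 CPM in pMSCV, 14.5, 17.4 and 5.28 CPM in SRF, and 13.6, 16.5 and 7.35 CPM for the label SRF-FOXO1. The other fusions ran from 9.10 to 20.6 CPM, and every pair of groups overlapped.

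Within a number, TMOD2 was lower than in pMSCV in 3 of 3 libraries of SRF and of each fusion except SRF-PDGFRB. With the block its difference was -0.60 (SE 0.18, edgeR adjusted p = 0.0556) in the libraries labelled SRF-FOXO1. It was -0.72 in SRF (SE 0.18, edgeR adjusted p = 0.134) and -0.48 in SRF-ICA1L (SE 0.18, edgeR adjusted p = 0.16). None passed in edgeR. SRF-PDGFRB was near pMSCV, at -0.08 (SE 0.18). The principal transcript of TMOD2, at 9191 bases, is the longest of the members. Its largest falls within a number were -1.08 in SRF replicate 3 and, for SRF-FOXO1, -0.76 in replicate 1. These are the libraries with the steepest loss of level with transcript length (slopes -0.128 and -0.0726). SRF-ICA1L and SRF-RELA hold neither library. The part of transcript length in the TMOD2 differences was not tested.

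TMOD1 was close to the limit of detection, at 4 to 31 counts and at most 1.09 CPM in a library. Its 3 SRF-ICA1L libraries held 6 counts each, 0.208 to 0.250 CPM, and were below each library of pMSCV, SRF, SRF-PDGFRB and SRF-RELA. On the log2 scale the difference was -1.16 (SE 0.56, edgeR adjusted p = 0.478) against pMSCV and -1.37 (SE 0.55, edgeR adjusted p = 0.333) against SRF. At this depth neither difference passed the test. TSTD2, a gene on the opposite strand whose exons overlap those of TMOD1, reached 20.6 CPM, and whether counting used the strand is not given in the sources used here, so reads of the 2 genes may not be told apart.

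The same limit applies to other members. LYSMD2 overlaps exons of TMOD2 and reached 12.1 CPM, near the level of TMOD2 itself, and LEO1 overlaps TMOD3 and reached 37.7 CPM. The antisense gene TPM1-AS reached 5.36 CPM, far below TPM1. Reads of near-identical copies can be split: the pseudogene TPM4P2 held 339 to 698 counts, at most 25.9 CPM, and TPM3P9 at most 5.70 CPM.

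Counted over the 7 members, the direction was mixed. Against pMSCV, 4 of 7 were higher in the libraries labelled SRF-FOXO1 (median log2 fold change 0.26, against 0.01 over all tested genes), 5 in SRF-ICA1L (0.10 against -0.01), 6 in SRF-RELA (0.13 against -0.01), 5 in SRF-PDGFRB (0.02 against 0.00) and 2 in SRF (-0.15 against 0.01). Against SRF, 6 of 7 were higher in SRF-FOXO1 (0.14 against -0.01) and SRF-ICA1L (0.16 against -0.02), and 5 in SRF-PDGFRB (0.16 against -0.01) and SRF-RELA (0.23 against -0.01). Scaling by total count alone moved the median of all genes to -0.12 in SRF-ICA1L against pMSCV and to -0.11 against SRF-PDGFRB, and TPM4 then changed sign against pMSCV, from 0.10 to -0.01. It also turned TPM2 in SRF-FOXO1 against SRF from 0.04 to a value just below 0.

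The balance between the most abundant tropomyosin genes can be read within a library. The log2 ratio of TPM1 to TPM4 counts was -1.05 ± 0.17 (SD, n = 3) in pMSCV and -0.99 ± 0.10 in SRF, so TPM4 had more counts in each of those libraries. For the fusions it was -0.01 ± 0.69 (SRF-FOXO1), -0.13 ± 0.61 (SRF-ICA1L), -0.39 ± 0.37 (SRF-RELA) and -0.85 ± 0.29 (SRF-PDGFRB). The summed level of the 4 tropomyosins was 3132 ± 274 CPM in pMSCV against 2949 ± 184 for SRF, 4709 ± 851 for SRF-FOXO1, 4043 ± 341 for SRF-ICA1L, 3701 ± 436 for SRF-RELA and 3336 ± 230.1 for SRF-PDGFRB. These ratios and sums are descriptions and were not tested.

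Over the 18 libraries, the TPM1 level on the log2 CPM scale had a Pearson correlation of 0.702 with TPM4, 0.689 with TPM3 and 0.319 with TPM2. The libraries share groups, numbers and depth and differ in the trend of level with transcript length, so these are descriptions. The genes most like TPM1 by that measure, of 12760 searched, were BCAR1 (0.969), an adaptor of focal adhesions, HK1 (0.969), a hexokinase, and WSB2 (0.966). For TPM2 they were RNF181 (0.948), the myosin light chain gene MYL6 (0.93) and NDUFA1 (0.927), and for TPM3 they included C12orf75 (0.922) and SFTA1P (0.914). TPM2 and MYL6 were both highest in SRF replicate 3, the library with the steepest loss of level with transcript length. TPM4 was most like the myosin-regulating kinase gene DAPK3 (0.921), the actin-bundling plastin gene PLS3 (0.92) and HSPA5 (0.901). The closest genes were TBC1D9 (0.907), ZNF516 (0.9) and PHF20L1 (0.892) for TMOD2, CLTC (0.824), GNG12 (0.813) and GLYR1 (0.79) for TMOD3, and LACC1 (0.842), IFRD1 (0.831) and NAMPT (0.799) for TMOD1.

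The proteins that work with tropomyosin on the thin filament were followed with a list of 33 genes, of which 25 could be tested. The remaining 8, LMOD2, NEBL and 6 of 8 troponin genes, were too low. Tropomodulin's relative leiomodin 1 (LMOD1), a filament nucleator of smooth muscle, stood at 2.34, 5.97 and 2.63 CPM in pMSCV, at 22.3, 24.1 and 20.4 for SRF, and at 14.4, 76.3 and 38.5 for SRF-FOXO1. SRF-ICA1L was at 17.1, 42.2 and 31.9 CPM, SRF-RELA at 12.0, 33.6 and 15.8 CPM and SRF-PDGFRB at 3.90, 9.41 and 5.22 CPM. Every SRF library was above every pMSCV library, whereas TPM1 overlapped between those groups.

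LMOD1 rose against pMSCV in the libraries labelled SRF-FOXO1, by 3.69 on the log2 scale (SE 0.66, edgeR adjusted p = 0.0212), and in SRF-ICA1L, by 3.20 (SE 0.65, edgeR adjusted p = 0.0454). In SRF it was 2.65 (SE 0.63, edgeR adjusted p = 0.429) without the block and 2.84 (SE 0.34, edgeR adjusted p = 0.00341) with it, a call kept in each of the 6 fits that left out 1 library. In SRF-RELA the block gave 2.54 (SE 0.34, edgeR adjusted p = 0.00143). Without the block, the SRF-FOXO1 call was lost without pMSCV replicate 1 (edgeR adjusted p = 0.152), pMSCV replicate 3 (0.131) or SRF-FOXO1 replicate 2 (0.0857). The SRF-ICA1L call was kept without SRF-ICA1L replicate 1 alone (edgeR adjusted p = 0.0315), and the other 5 fits gave 0.0821 to 0.234. Against SRF, LMOD1 fell in SRF-PDGFRB with the block, by 2.06 on the log2 scale (SE 0.33, edgeR adjusted p = 0.00673; 1.13% of genes were called lower there).

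The slow troponin C gene TNNC1 held 9, 36 and 30 counts in the libraries labelled SRF-FOXO1, against 3, 3 and 2 in pMSCV and 3, 0 and 4 in SRF. It was called in both comparisons (edgeR adjusted p = 0.0443 and 0.0309), at counts too low for a fold change. Each call was lost without SRF-FOXO1 replicate 2 (edgeR adjusted p = 0.206 and 0.131), among other libraries. CALD1, which encodes caldesmon, an actin-binding protein that works with tropomyosin, rose in the libraries labelled SRF-FOXO1 against SRF by 1.10 (SE 0.25, edgeR adjusted p = 0.0393). The CALD1 call was lost without SRF-FOXO1 replicate 2 (0.71, edgeR adjusted p = 0.171), SRF-FOXO1 replicate 3 (0.0695), SRF replicate 1 (0.156) or SRF replicate 2 (0.144).

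Without the block, edgeR called 2 partner genes against pMSCV in SRF-FOXO1 (0.928% of all genes), 1 in SRF-ICA1L (0.469%) and 0 in SRF (0.027%), SRF-PDGFRB (0.0324%) and SRF-RELA (0.183%). With it, 9 of 25 were called for SRF-FOXO1, 6 for SRF-ICA1L, 4 for SRF-RELA, 1 for SRF and 0 for SRF-PDGFRB, all higher, where the share of all tested genes called higher was 4.65%, 3.26%, 0.928%, 0.162% and 0.129%. DESeq2 called 7, 2, 1, 2 and 0, beside 2.33%, 1.55%, 0.504%, 0.133% and 0.0766% of its genes. The list was chosen with earlier results of these data known. The counts therefore cannot show that such genes are called more often than others. At an unadjusted p under 0.05 without the block, 4 partners passed in SRF, 5 in SRF-RELA and 0 in SRF-PDGFRB. What share of all tested genes passed that cutoff was not counted. The 9 with SRF-FOXO1 were LMOD1, TNNC1, CALD1, the calponins CNN1 and CNN3, TAGLN, the filament-severing genes GSN and CFL2, and the myosin light chain gene MYL9. The largest of these by log2 fold change with the block, after LMOD1 and leaving out TNNC1, were CNN1 at 2.50 (SE 0.28, edgeR adjusted p = 0.000179) and TAGLN at 2.26 (SE 0.29, edgeR adjusted p = 0.000505).

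Of the 9, LMOD1, CALD1, CNN1, TAGLN, GSN and MYL9 were also called with the block in SRF-ICA1L, and LMOD1, CNN1, TAGLN and MYL9 in SRF-RELA, 3 comparisons that share their pMSCV libraries. In the 6 fits with the block that each left out 1 library, LMOD1, CNN1, TAGLN and MYL9 kept their calls in SRF-FOXO1 and SRF-ICA1L, and LMOD1 and CNN1 in SRF-RELA. The other calls depended on single libraries: CALD1 kept its call in 2 of 6 fits in SRF-FOXO1 and 0 of 6 in SRF-ICA1L (edgeR adjusted p 0.0816 to 0.201), and GSN in 3 and 2 of 6. In SRF-FOXO1 TNNC1 and CNN3 kept theirs in 4 of 6 and CFL2 in 5 of 6, and in SRF-RELA TAGLN did so in 2 of 6 and MYL9 in 1 of 6. The median log2 fold change of the 25 tested partners without the block was 0.60 for SRF-FOXO1, 0.34 for SRF-ICA1L, 0.11 for SRF-RELA, 0.04 for SRF-PDGFRB and 0.08 for SRF, against 0.26, 0.10, 0.13, 0.02 and -0.15 for the 7 members. Against SRF with the block, 5 partners were called higher in SRF-ICA1L (CALD1, CNN1, TAGLN, MYH10 and MYL9; 3.16% of genes). CNN1 and MYH10 each kept that call in 1 of 6 such fits, and the other 3 in each. In SRF-RELA 1 partner was called lower, the actin-depolymerizing factor gene DSTN, which fell by 0.61 on the log2 scale (SE 0.14, edgeR adjusted p = 0.0327; 0.475% of genes), a call kept in 2 of 6 such fits. DSTN was highest in SRF replicate 3, at 612 CPM against a median of 357 over all libraries. That library had the steepest loss of level with transcript length, and the part of length in the DSTN fall was not tested. The capping protein genes CAPZA1, CAPZA2 and CAPZB, which close the opposite end of the filament from tropomodulin, were called in none of the 9 comparisons with pMSCV or SRF, with or without the block.

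**Figure D4:**
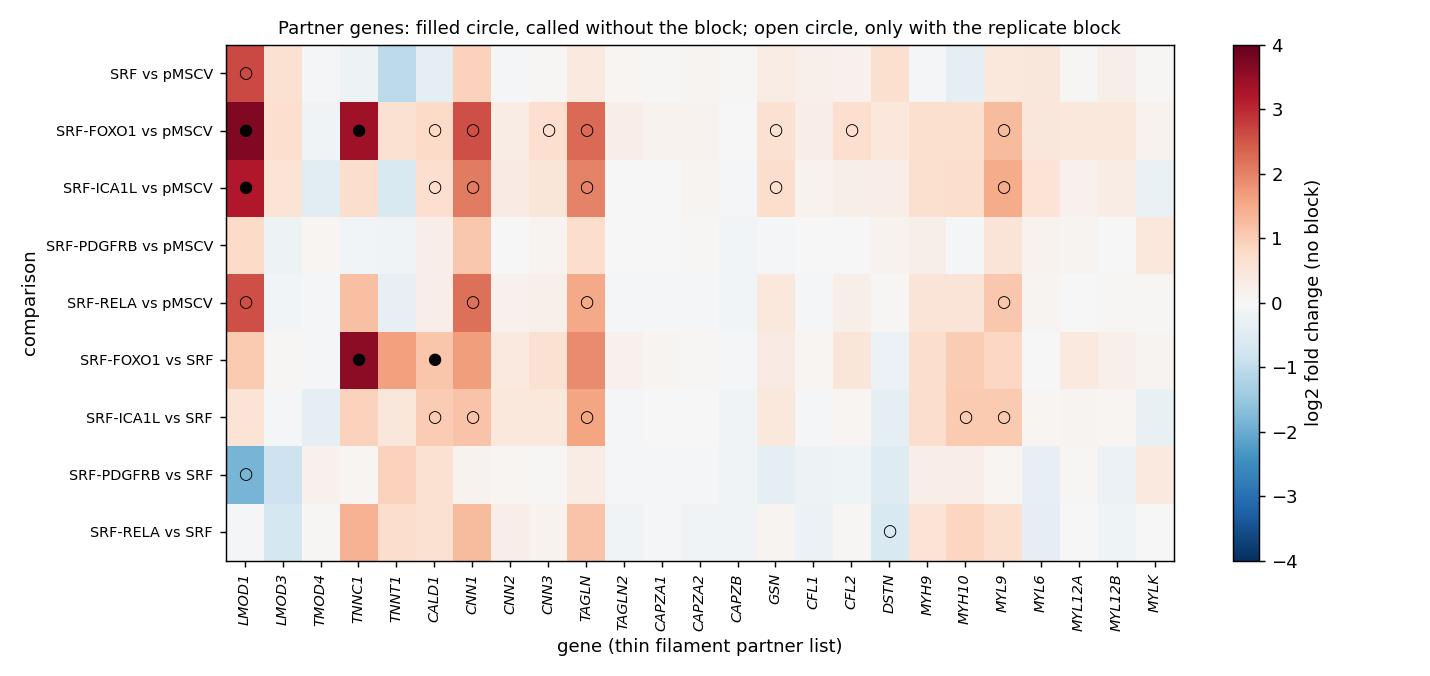
The log2 fold change without the block (colour, red higher and blue lower) of the 25 tested partner genes (x axis) in the 9 comparisons with pMSCV or SRF (y axis). Filled circles mark genes called by edgeR without the block and open circles those called with it alone, which are not marked for SRF-FOXO1 against SRF. TNNC1 had at most 4 counts in each pMSCV and SRF library, so its colour there is no estimate of size.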

How the data were processed

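Per the labels' protocols, stranded mRNA libraries (TruSeq) were made from total RNA of MSC-hTERT cells and sequenced on an Illumina NovaSeq. The deposited values are raw counts, 1 column for each library and 1 line for each Ensembl gene. The submitters' processing notes name FastQC 0.11.8, Trimmomatic 0.39, HISAT2 2.12.1, featureCounts of Subread 2.0.3 and GRCh38; strand use and the annotation release are not given in the sources used here.

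CPM was computed from the counts and the library totals (19362319 to 29806771) without further scaling. Genes were tested with edgeR 4.0.16 in R 4.3.3: filterByExpr with a minimum count of 10 (18544 genes), TMM scaling, a robust quasi-likelihood fit of the 18 libraries with 1 coefficient per group (12 residual degrees of freedom, common biological coefficient of variation 0.225), two-sided F tests of 15 pairs of groups and Benjamini-Hochberg adjustment over all tested genes, called under 0.05. The script was tested on simulated data. Gene positions and principal transcript lengths came from GENCODE release 29.

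The replicate number was a block in an alternative fit (10 degrees of freedom, coefficient of variation 0.150). Deviations from group means correlated above 0.1 for 44 of 45 same-number pairs (median 0.375) and had a median of -0.18 over the 90 others. The deviations within a group cancel for each gene. The second median therefore follows largely from the first and is no separate sign of pairing. Replicate 1 of SRF with that of SRF-FOXO1 gave 0.0875, so block calls for that comparison stand under the processing alternatives. The pairing is read from the values; the labels do not say what a number marks.

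Named genes are the 7 members, the construct genes, LMOD1 and the partners called against pMSCV or SRF with or without the block, and, per member, the 3 genes with mean log2 CPM of at least 1 (TMM, prior count 2) with the highest Pearson correlation; some items are not reported here. The capping protein genes were named after their values were seen. The members and lists were chosen with earlier results of these data known. Alternatives were DESeq2 size factors, total count scaling, 2 other count filters, the 2 compared groups alone, the DESeq2 1.42.0 Wald test, the block and leaving out each library. A length correction (a lowess trend per library on log2 transcript length, as an offset) and the block without each library were chosen after seeing the data.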

Additional observations from a re-analysis of the deposited data

How the results depend on the processing

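Over 1346 log2 fold changes of members under the alternatives, 1222 kept their sign. Of called values 0 reversed, but the model without the block called only 1 member value, so this says little about the rest. The numbers of members called moved as follows. With the replicate block, 2 were called in SRF-FOXO1 against pMSCV, 1 each in SRF-ICA1L against pMSCV, SRF and SRF-PDGFRB and in SRF-FOXO1 against SRF-PDGFRB, and 3 in SRF-FOXO1 against SRF, where 7.23% of genes were called: TPM1 (1.44, edgeR adjusted p = 0.00142), TPM3 (0.56, 0.0164) and TPM4 (0.46, 0.0127). In that comparison the block also called 9 of 25 partners, all higher. The block changed no other member call. DESeq2 called 2, 1, 1, 0, 1 and 3 in the same order. SRF-FOXO1 against SRF had 0 without a count filter (TPM1 edgeR adjusted p = 0.156). It had 0 with the 2 groups alone (0.294), where 1 of 17115 tested genes was called, and 2 with the length correction (2.03% of genes). The cause of these moves was not tested.

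With the length correction and the block, 2 were called in SRF-FOXO1 (9.09% of genes) and 2 in SRF-ICA1L (5.89%) against pMSCV, 3 in SRF-FOXO1 (9.96%), 3 in SRF-ICA1L (6.46%) and 1 in SRF-RELA (1.86%) against SRF, and 1 each in SRF-FOXO1 (5.04%) and SRF-ICA1L (5.81%, there TPM2) against SRF-PDGFRB. Leaving out each library gave 0 to 1 members called for SRF-FOXO1 against SRF, pMSCV and SRF-PDGFRB and for SRF-ICA1L against SRF; the call there without SRF replicate 3 was TPM3. Leaving out each library with the block gave 1 to 2 for SRF-FOXO1 against pMSCV, 1 to 3 against SRF and 0 to 1 against SRF-PDGFRB, and for SRF-ICA1L 0 to 1 against pMSCV, 0 to 2 against SRF and 0 to 1 against SRF-PDGFRB. For SRF-RELA against SRF it gave 0 to 1. TMOD1, at 4 to 31 counts per library, has the least depth of the 7 genes.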
